A study of Mus musculus with 20 samples.

Results

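The sites described here are 2176 edited cytidines that were listed in mouse hippocampus and in neither cortex nor cerebellum, although their gene had edited sites in all 3 regions. They were chosen by the presence or absence of the same nucleotide and strand in 3 deposited lists, so their absence from cortex and cerebellum is part of the choice and not a finding. They made up 20.1% (95% interval 19.3 to 20.9%) of the 10835 hippocampal sites in the 1608 genes listed in all regions, and lay in 917 of these genes (57.0%, 54.6 to 59.5%). The whole hippocampal list held 13461 sites and the lists together held 25978. Another 1160 hippocampus-only sites lay in genes missing from at least 1 other list and are not described here. They comprised 856 sites in genes of hippocampus and cortex, 53 in genes of hippocampus and cerebellum and 251 in genes listed in hippocampus alone.

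N6-methyladenosine (m6A) is a methyl mark that the METTL3 and METTL14 complex places on adenosines of messenger RNA, mostly within GAC or AAC and often in the last exon. Proteins with a YTH domain bind the mark and affect the decay, translation or transport of the RNA. In the hippocampus, a region needed for spatial and episodic memory, m6A has been studied for its part in learning and in local translation near synapses. APOBEC1-YTH joins the cytidine deaminase APOBEC1 to a YTH domain, so that a cytidine beside an m6A is turned into uridine and is read as a C-to-U edit in ordinary RNA sequencing. APOBEC1-YTHmut, which carries a mutated YTH domain, served as the control for background edits, per the labels.

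Bulk poly(A) RNA was sequenced from 20 libraries of mice carrying a transgene induced by tamoxifen. APOBEC1-YTH was measured in 4 libraries of hippocampus, 4 of cortex and 4 of cerebellum, which came from the same 4 animal numbers, and APOBEC1-YTHmut in 2 libraries of hippocampus, 3 of cortex and 3 of cerebellum from 3 animal numbers. Mice of either transgene were injected with tamoxifen at 20 mg/kg, once every 24 h over 5 days, and dissected 7 days after the last injection. Each library was made from 900 ng of total RNA. The sources used here do not give the promoter of the transgene or the age of the mice. Each region was represented by 1 list with 1 editing level per site. The level is given as percent and taken to be edited reads over all reads of the pooled APOBEC1-YTH libraries, which is an assumption. There was no value per animal and no read depth, so no difference below could be tested against a spread between animals and no p-value is given. Intervals are exact 95% binomial intervals for shares and order-based 95% intervals for medians. They treat sites or genes as independent and cover neither animals nor read counting. Absence from a list does not show that a nucleotide lacked m6A, and in bulk tissue fewer cells of a type and less RNA per cell cannot be told apart. Expression was not measured here, so the dissected tissues could not be checked against their marker genes.

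The bases around a site were at hand only where the site fell into a reference window around a gene start, which held 5 of the 2176 sites, each near the start of a neighbouring or overlapping gene. They are shown because they carry the edited cytidine itself. Each line gives 25 bases of the transcript strand from RefSeq (GRCm38.p6, the assembly of mm10), 5′ to 3′, with the edited C and the 2 bases before it in capitals.
Cadm2: gatcctcgtaGACatgtttttatat
Grin1: gggcgcgcatAACcacccctaatcc
Sdf4: cactgcctatAACtctagctcttct
Podxl2: tgaggactcgGACgtgttcgaggag
Cers1: tcgcccctagGACaatagccccgcc
The Cadm2 window, in the gene of a synaptic adhesion protein, is chr16:66657138-66657162 on the minus strand, and its site was edited at 2.08%, 70 nt from the nearest cortical or cerebellar site. The Grin1 window, in the gene of the obligatory NMDA receptor subunit, is chr2:25291219-25291243 on the minus strand, with 1.55% and 95 nt. The Sdf4 window is chr4:156013502-156013526 on the plus strand, with 2.67% and 15 nt. The Podxl2 window is chr6:88842782-88842806 on the minus strand, with 1.56% and 50 nt. The Cers1 window, in the gene of a ceramide synthase, is chr8:70329722-70329746 on the plus strand, with 1.54% and 203 nt. In all 5 the edited C followed an A, in GAC for Cadm2, Podxl2 and Cers1 and in AAC for Grin1 and Sdf4. Of the sites of any list, 63 fell into such windows, and all 63 were the C of GAC (37 sites) or AAC (26 sites). Whether the site calling kept only such cytidines is not known, so the 63 sites cannot show a preference for these letters. Over the 32851 RefSeq windows, 9.13% of the cytosines of both strands end GAC or AAC, and 99.99% of the windows hold such a run of letters on either strand. The shared context is thus that of every listed site seen in these windows and does not set hippocampus-only sites apart.

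Hippocampus-only sites were spread thinly over many genes. Of the 917 genes, 438 (47.8%) had 1 such site, 205 had 2 and 274 had 3 or more, and the last group held 61.0% of the sites. Only 14 genes had 10 or more, with 175 sites. Protein-coding genes numbered 904 and long noncoding RNA genes 8, and 5 symbols were not matched to the reference. Genes with hippocampus-only sites had more listed sites of any kind, with medians of 6 hippocampal, 7 cortical and 4 cerebellar sites, against 2, 3 and 2 in the 691 genes without, a difference that the choice of sites favours. A gene with 1 hippocampal site had it in hippocampus alone in 16.4% of cases, whereas 92.7% of genes with 20 or more hippocampal sites had at least 1 hippocampus-only site. Per site the share had no single direction, at 16.4% in genes of 1 hippocampal site, 25.2% in genes of 2 to 4, 23.1% at 5 to 9, 21.4% at 10 to 19 and 15.3% at 20 or more. The same genes mostly also had sites particular to the other lists. Sites of all 3 kinds (hippocampus-only, cortex-only and cerebellum-only) were found in 410 genes (44.7%), and 95 genes (10.4%) had hippocampus-only sites with none of the other kinds.

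Set beside the other lists in the same 1608 genes, the hippocampal list had the smallest share of sites of its own. Cortex-only sites numbered 3966, or 29.6% (28.9 to 30.4%) of the cortical sites, in 1144 genes. Cerebellum-only sites numbered 2591, or 26.8% (25.9 to 27.7%) of the cerebellar sites, in 847 genes. Of the other 8659 hippocampal sites, 4942 were listed in all regions, 3028 also in cortex and 689 also in cerebellum. The 917 genes had more hippocampus-only than cortex-only sites in 370 cases (40.3%) and more than cerebellum-only sites in 578 (63.0%). They had more hippocampal than cortical sites in 323 cases (35.2%), against 22.3% of all genes of all regions, a difference that the choice of genes with hippocampus-only sites favours. The regions differed in the number of background libraries, and the part of depth and background in these counts was not tested.

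The gene with most hippocampus-only sites was Rab3c, which encodes a small GTPase of synaptic vesicles. It had 48 hippocampal, 42 cortical and 15 cerebellar sites, of which 18 were hippocampus-only, 10 cortex-only and 1 cerebellum-only. The 18 sites had levels from 1.02% to 6.16% with a median of 1.98%, and all lay between the outermost cortical and cerebellar sites of the gene, on chromosome 13 from 110054698 to 110061602 (mm10). Their distance to the nearest site of the other lists had a median of 89.5 nt, and the highest of them was at 110059877. The other hippocampal sites of Rab3c averaged 5.05%, against 2.58% for the hippocampus-only ones. The hippocampus-only sites were thus lower on average, and several of them, such as the site at 6.16%, were above some of the shared sites.

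Kcnd2, which encodes the dendritic A-type potassium channel Kv4.2, had 37 hippocampal, 24 cortical and 11 cerebellar sites, of which 17 were hippocampus-only, 4 cortex-only and 1 cerebellum-only. The sites fell into 2 groups at the ends of the gene on chromosome 6. Near the annotated start of the gene, a shared site at 21215878 was edited at 10.5% in hippocampus and 18.8% in cortex, and cortex alone listed sites at 21216025 (5.19%) and 21216125 (3.70%). Downstream of these came 6 hippocampus-only sites in a row over 621 nt, at 21216143, 21216436, 21216459, 21216542, 21216568 and 21216763, with levels of 3.60%, 1.22%, 1.75%, 5.15%, 1.64% and 2.40%. No cerebellar site was listed in this group. In the 3′ group the other 11 hippocampus-only sites, from 21727230 to 21729442, alternated with shared sites and ranged from 1.78% to 6.67%. The other hippocampal sites of Kcnd2 averaged 5.88%, against 2.88% for the hippocampus-only ones. The run near the gene start was the stretch of Kcnd2 where hippocampus was listed without the other regions, while the 3′ group was listed in all of them.

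**Figure D1:**
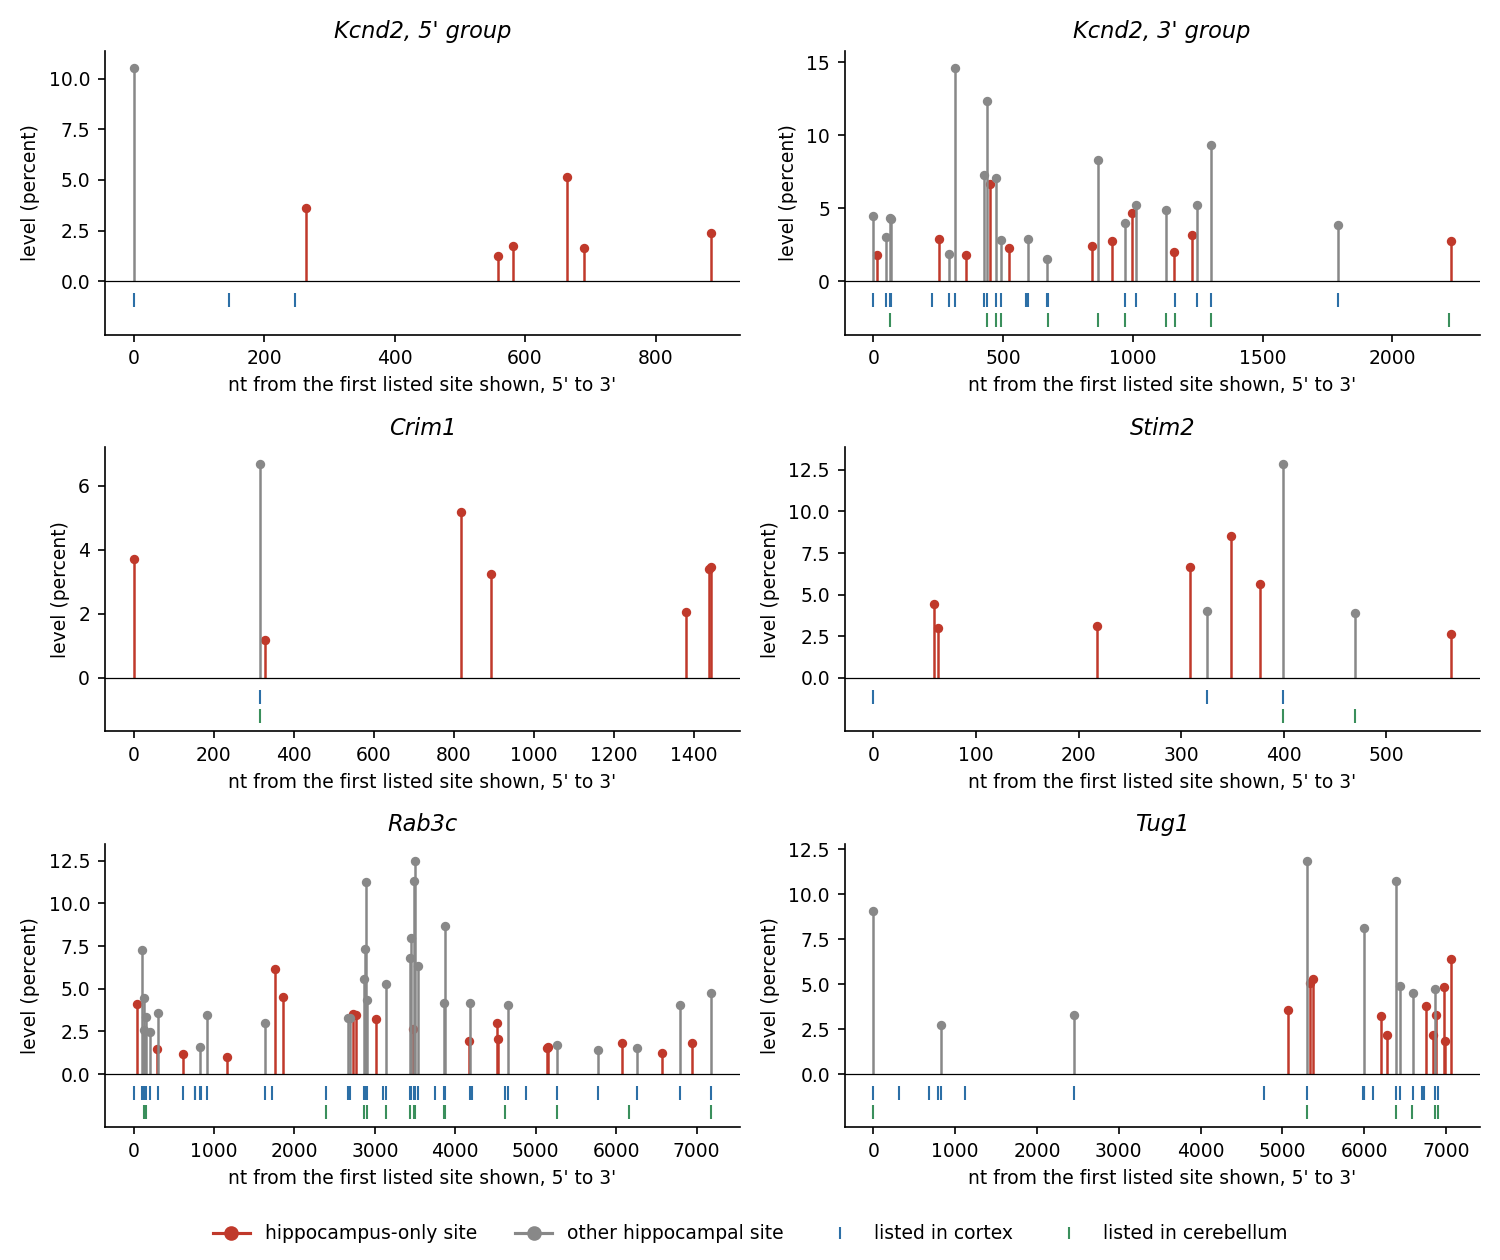
Listed sites along 5 genes, with nt from the first site shown on the x axis (5′ to 3′) and the hippocampal editing level in percent as stems, red for hippocampus-only and grey for other hippocampal sites; ticks below mark cortical (blue) and cerebellar (green) sites. Red stems stand beside grey stems and ticks in Rab3c and in the 3′ group of Kcnd2, and run on without ticks in the 5′ group of Kcnd2 and in Crim1, whose highest hippocampus-only site is at 5.19%.

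Among the other genes with most hippocampus-only sites were genes of membrane proteins and of noncoding RNA. Tppp, which encodes a tubulin polymerisation protein abundant in oligodendrocytes, had 17 among 52 hippocampal sites, at 1.02% to 5.08%, beside 40 cortical and 6 cerebellar sites. Frrs1l, needed for the assembly of AMPA receptors, had 13 of 50, beside 50 cortical and 61 cerebellar sites, 18 of which were cerebellum-only. The hippocampus-only sites of Frrs1l from 56957917 to 56959771 on chromosome 4 lay beyond its annotated end at 56960136. Pcdh9, a protocadherin gene, and Fam171b had 12 each, beside 18 cortex-only sites in both genes. Hippocampus-only sites were therefore not the most numerous region-only sites in Frrs1l, Pcdh9 or Fam171b. Atp2b1, a plasma membrane calcium pump gene, had 12 of 29 hippocampal sites, with 3 cortex-only and 0 cerebellum-only ones and levels from 1.03% to 2.16%. Man2a2, a Golgi mannosidase gene, had 11 of 28, beside 30 cortical and 19 cerebellar sites.

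Both long noncoding RNA genes in this group had listed sites in every region. Tug1 had 20 hippocampal, 20 cortical and 6 cerebellar sites, with 11 hippocampus-only sites from 1.82% to 6.42% and 10 cortex-only sites. The last 3 of these 11 toward the 3′ end, at 3640732, 3640715 and 3640647 on chromosome 11, were edited at 4.85%, 1.82% and 6.42% and lay beyond the last cortical or cerebellar site. Oip5os1 had 70 hippocampal, 80 cortical and 53 cerebellar sites, of which 41 were listed in all regions. Its 11 hippocampus-only sites were edited at 1.14% to 2.89% at a median of 26 nt from a site of the other lists, against a mean of 5.90% for its other hippocampal sites. Most of them lay beyond the annotated end of Oip5os1 at 119600746 on chromosome 2. The hippocampus-only sites of Oip5os1 were a small and low part of a densely edited transcript, and those of Tug1 made up more than its shared hippocampal ones.

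**Figure D2:**
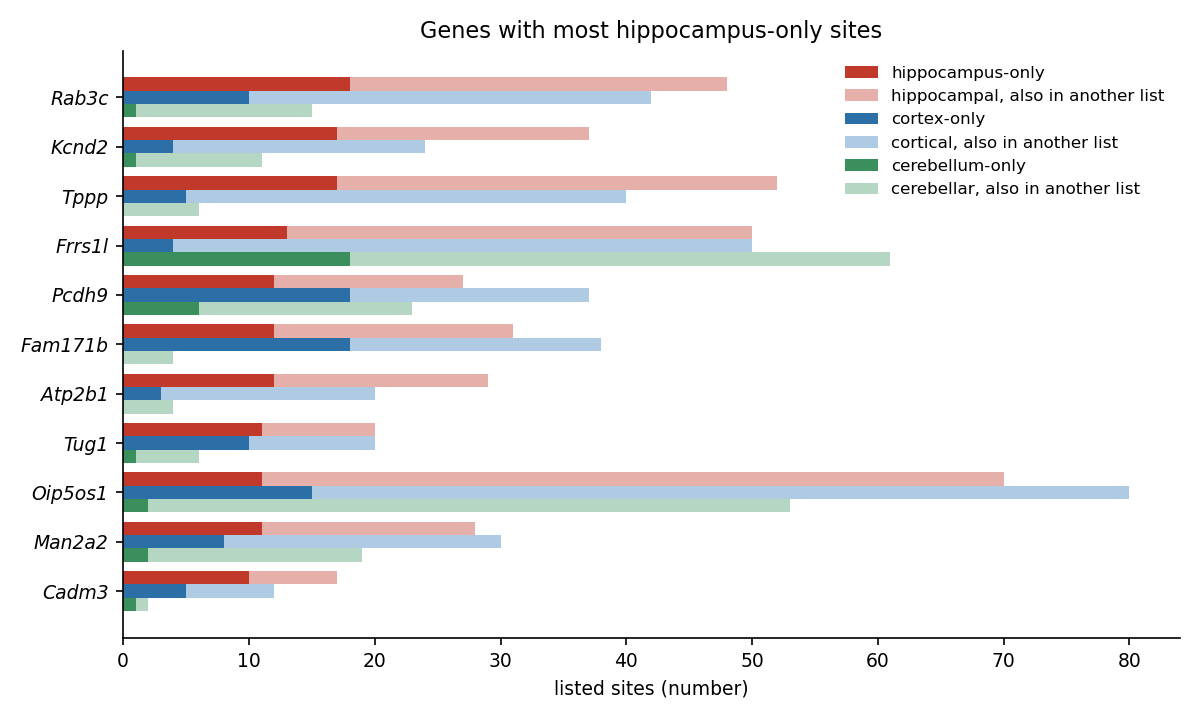
Number of listed sites (x axis) in genes with most hippocampus-only sites (y axis), with hippocampal, cortical and cerebellar bars split into sites of that list alone (dark) and sites also in another list (light). Rab3c leads with 18 hippocampus-only sites, while Pcdh9 and Fam171b have more cortex-only sites (18 each) and Frrs1l more cerebellum-only sites (18).

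In some genes most hippocampal sites were hippocampus-only. Among genes with at least 8 hippocampal sites the share was highest in Crim1, which encodes a transmembrane protein that binds bone morphogenetic proteins, with 7 of 8. Its only site in cortex and cerebellum, at 78374747 on chromosome 17, was edited at 6.67% in hippocampus, 5.17% in cortex and 6.25% in cerebellum. The 7 hippocampus-only sites, in transcript order, were edited at 3.70%, 1.18%, 5.19%, 3.23%, 2.04%, 3.39% and 3.45%. The last 6 followed the shared site over 1115 nt with no cortical or cerebellar site between them. The shared Crim1 site was thus edited at similar levels in every region, and the hippocampus-only sites around it were all lower.

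Stim2, an endoplasmic calcium sensor gene, had 7 hippocampus-only sites of 10, on chromosome 5 from 54118923 to 54119427. Their levels were 4.41%, 3.01%, 3.12%, 6.67%, 8.54%, 5.65% and 2.60%. Its shared site at 54119263 was edited at 12.8% in hippocampus, 13.6% in cortex and 4.44% in cerebellum. The hippocampus-only sites of Stim2 thus lay around the site that was the most edited of the gene in every list.

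The other genes of this kind had means from 1.38% to 3.45% over their hippocampus-only sites. Actr2, a subunit gene of the actin-nucleating Arp2/3 complex, and Nptxr, the neuronal pentraxin receptor gene, had 6 of 8 each, at 1.28% to 2.80% and 1.32% to 2.45%. Mef2a, a transcription factor gene active in neurons, had 8 of 11, with a mean of 1.88% against 8.02% for its other hippocampal sites. Ppp1cb, a catalytic subunit gene of protein phosphatase 1, had 6 of 9 at 1.05% to 1.97%. Sh3bgrl had 9 of 14 at 1.26% to 3.33%, and Rasa1, a Ras GTPase activator gene, had 5 of 8 at 1.60% to 5.21%. In all these genes the mean level of the other hippocampal sites was above that of the hippocampus-only sites.

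All hippocampal sites were hippocampus-only in 75 genes, 54 of which had 1 hippocampal site. Only 5 of these genes had 3 or more sites, and they are named here after their values were seen. Kcnd3, the Kv4.3 relative of Kcnd2, had 5 sites at 8.47%, 6.76%, 5.17%, 2.27% and 2.99%, while cortex listed 2 sites and cerebellum 8, all at other nucleotides. Its nearest pair lay 6 nt apart, at 105671995 in hippocampus (5.17%) and 105672001 in cerebellum (6.25%) on chromosome 3. Rps6kb1, which encodes the ribosomal protein S6 kinase, had 3 sites at 7.14%, 5.06% and 6.10%. Sf3b1, a spliceosome gene, had 3 at 5.56%, 1.02% and 2.7%, Ctbp1, a transcriptional corepressor gene, had 3 at 2.01%, 3.06% and 2.40%, and Tmem151a had 3 at 2.23%, 2.52% and 1.56%. In these genes the regions shared the gene but no hippocampal nucleotide.

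Runs of hippocampus-only sites uninterrupted by cortical or cerebellar sites were mostly short. A run of at least 2 occurred in 223 genes and a run of at least 3 in 59. The longest had 6 sites and were found in Kcnd2 and Crim1, described above, and in Cadm3 and Inpp5f. Cadm3, which encodes a nectin-like adhesion molecule, had 10 hippocampus-only sites of 17 at 1.18% to 2.94%, 6 of them in a run of 990 nt, and 1 of its 2 cerebellar sites, at 173343346 on chromosome 1, was cerebellum-only at 78.05%. Inpp5f, a phosphoinositide phosphatase gene, had a run of 6 over 412 nt at 1.05% to 2.60%. Among the genes with runs of 4 were Stim2, the sialyltransferase gene St3gal2, Tppp, Atp2b1, Mef2a, Actr2 and Sh3bgrl. The run of St3gal2 covered 7964 nt of the genome.

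The editing levels of hippocampus-only sites were low. Their median was 1.82% (1.76 to 1.85%), with quartiles of 1.34% and 2.67%, against a median of 3.14% (3.09 to 3.21%) and quartiles of 2.02% and 5.26% for the other hippocampal sites of the genes of all regions. A level of 5% was reached by 116 hippocampus-only sites (5.33%), against 27.4% of the other sites. A level of 10% was reached by 8 (0.368%, 0.159 to 0.723%), against 669 (7.73%) of the other sites and 6.14% of the whole hippocampal list. At 35% or more there was no hippocampus-only site, against 105 other hippocampal sites, 11 cortex-only and 2 cerebellum-only sites, and 0 of 2176 sites allows a share of up to 0.169%. The lists end at 1%, where 13 hippocampus-only sites stood. A site just under that limit elsewhere would count as absent from that list. The choice of sites can thus favour low levels, and its part in them was not tested.

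The same order held inside genes. In 696 of the 842 genes with both kinds of hippocampal sites (82.7%, 79.9 to 85.2%), the median level of the hippocampus-only sites was below that of the gene's other hippocampal sites, by a median difference of -1.08 percentage points (-1.21 to -0.995). Cortex-only sites were below their gene's other cortical sites in 80.2% of 1080 genes, and cerebellum-only sites below their gene's other cerebellar sites in 80.6% of 764 genes. Low levels were therefore shared by the region-only sites of every list. The medians were 1.82% for hippocampus-only, 2.15% for cortex-only and 2.50% for cerebellum-only sites.

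The share of hippocampus-only sites fell with the level. It was 44.3% of the hippocampal sites from 1 to 1.5%, 31.0% from 1.5 to 2%, 19.1% from 2 to 3%, 12.5% from 3 to 5%, 6.68% from 5 to 7.5%, 4.03% from 7.5 to 10% and 1.59% from 10 to 20%. At 20% or more it was 0 of 173 sites, which allows up to 2.11%. In the lowest bin the cortex-only share (46.8%) and the cerebellum-only share (44.0%) were close to the hippocampal 44.3%. From 10 to 20% they were higher, at 8.05% and 9.95%. Hippocampal sites of high level were thus listed in another region more often than cortical or cerebellar ones of the same level, which was not tested and for which depth per region is unknown.

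**Figure D3:**
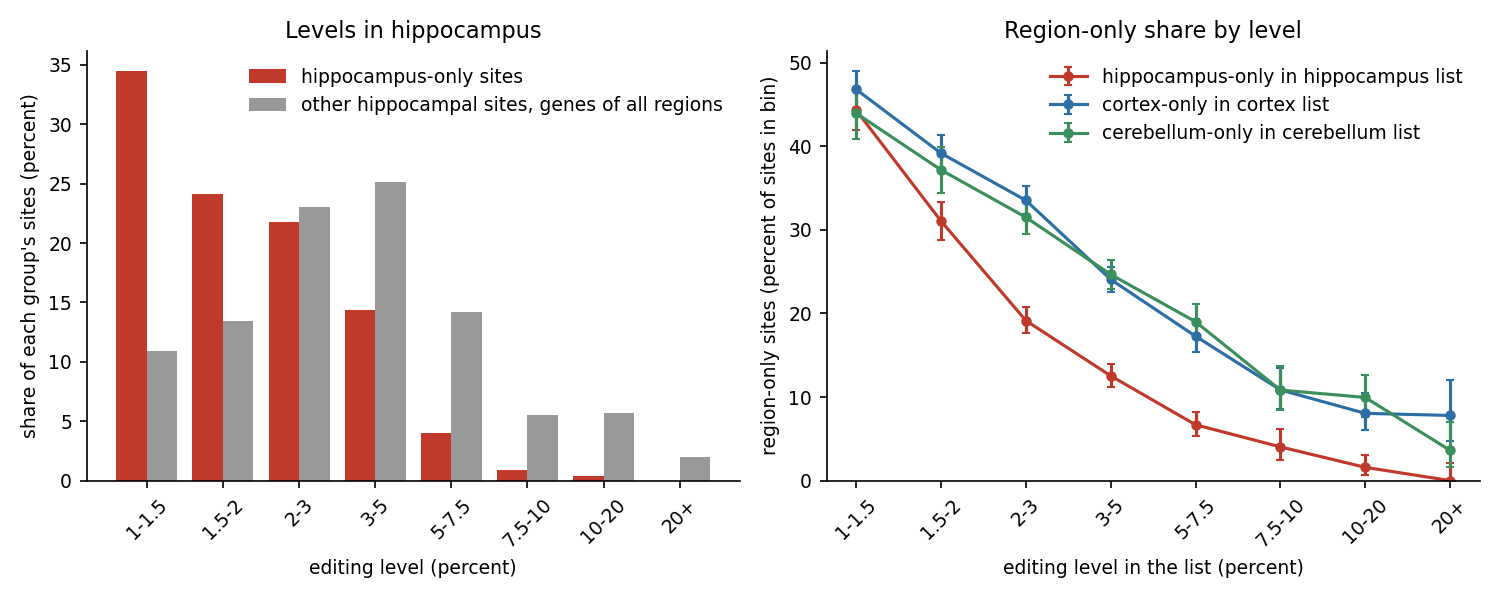
Left, share of sites (percent of each group) by editing level in hippocampus for 2176 hippocampus-only sites (red) and 8659 other hippocampal sites of the genes of all regions (grey). Right, share of each list's sites that were in that list alone (percent, points with exact 95% binomial intervals) by level, falling from 44.3% at 1 to 1.5% to 0 of 173 sites at 20% or more in hippocampus.

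The 8 hippocampus-only sites at 10% or more lay in 8 genes, most of them within 100 nt of a site of another list. Brwd1, which encodes a bromodomain protein, held the highest, at 96067944 on chromosome 16 with 19.05%. Cortex listed the position 6 nt away, 96067938, at 8.33%. The 13.4% site of Rgs5, a G-protein regulator gene and pericyte marker, lay 79 nt from a cerebellar site at 5.45%. The Ctso site (cathepsin O, 13.2%) lay 39 nt from a site edited at 5.88% in hippocampus and 5.66% in cortex. The Acp2 site (lysosomal acid phosphatase, 13.0%) lay 61 nt from one edited at 16.3% in hippocampus, 16.3% in cortex and 18.2% in cerebellum. Brwd1 and Odr4 thus had a neighbouring cytidine listed elsewhere within 10 nt.

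Odr4 was edited at 12.35% at 150362452 on chromosome 1, and 9 nt away cortex listed 4.92% and cerebellum 19.2%. Slc2a13, a myo-inositol transporter gene, had 11.8% and lay 21 nt from a cortical site at 4.76%. Tank, a gene of the NF-kappaB pathway, had 10.4% and lay 96 nt from a site edited at 10.7% in hippocampus, 9.80% in cortex and 8.51% in cerebellum. Sparcl1, which encodes a protein secreted by astrocytes, was the exception in distance. Its 3 hippocampus-only sites lay in a run of 50 nt on chromosome 5, at 104079472, 104079447 and 104079423, with 12.45%, 2.93% and 9.40%. The nearest site of another list was 56 nt from the closest of them, edited at 4.25% in hippocampus and 2.48% in cortex. In Sparcl1, unlike in most genes, 2 of the hippocampus-only levels were above the level of the shared hippocampal site.

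Hippocampus-only sites lay close to sites of the other regions. The median distance to the nearest cortical or cerebellar site of the same gene was 52 nt (49 to 55), with a lower quartile of 18 nt and a 90th percentile of 403.5 nt. Within 10 nt lay 14.8%, within 50 nt 48.9% (1065 sites), within 100 nt 66.3% and within 500 nt 91.7%. The smallest spacing was 3 nt, as among the sites of every list. Cortex-only sites had a median distance of 65 nt to hippocampal or cerebellar sites, and cerebellum-only sites 80 nt. Within 50 nt lay 43.9% of cortex-only and 39.3% of cerebellum-only sites, against 48.9% of hippocampus-only sites. The number of sites in the other lists differs between these comparisons, and its part in the distances was not tested.

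**Figure D4:**
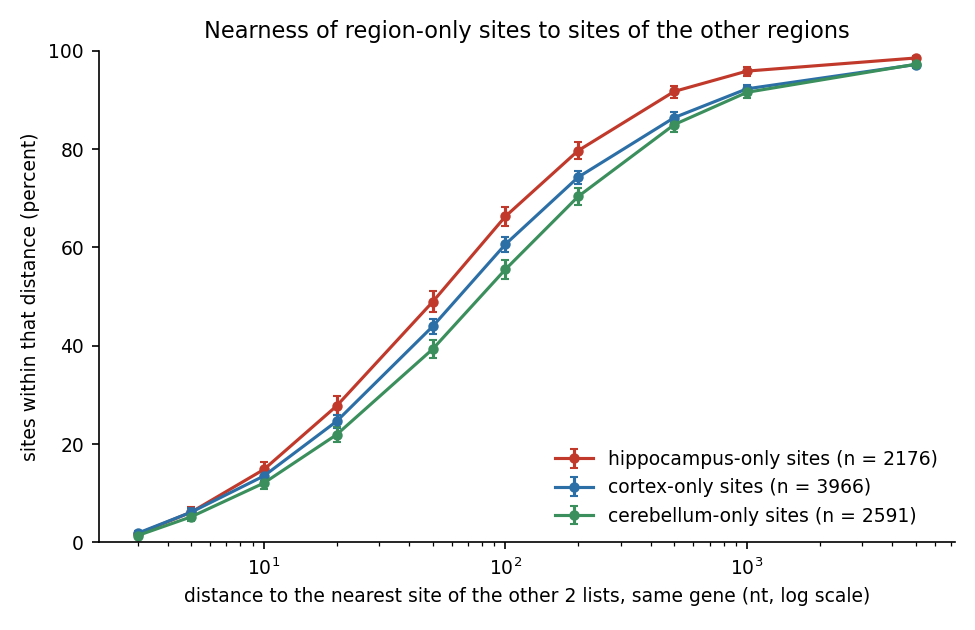
Share of sites (percent, with exact 95% binomial intervals) within a given distance in nt (log scale) of the nearest site of the other 2 lists in the same gene, for hippocampus-only, cortex-only and cerebellum-only sites. The hippocampus-only curve reaches 48.9% at 50 nt and 91.7% at 500 nt and lies above the other curves from 20 nt on.

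The nearest site of another region was more often cortical. Hippocampus-only sites lay a median of 63 nt from a cortical and 127 nt from a cerebellar site. The cortical site was nearer for 49.7% of them, the cerebellar one for 15.6%, and both were equally far for 34.7%. The nearest site was also a hippocampal one in 1204 cases (55.3%), and there the hippocampus-only site was the lower of the pair in 926 (76.9%), with medians of 1.72% for the hippocampus-only site and 2.92% for its neighbour. For 555 sites the nearest was cortex-only and for 244 cerebellum-only. Few hippocampus-only sites were close to each other. Another hippocampus-only site lay within 50 nt of 16.0% of them, and for 175 of these 348 sites a site of another list did too. Over all hippocampus-only sites, a site of another list lay within 50 nt of 1065 of 2176. The level differed little with distance, with medians of 1.84% at 3 to 10 nt, 1.78% at 11 to 50 nt, 1.83% at 51 to 200 nt, 1.80% from there to 1000 nt and 1.82% beyond.

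Most hippocampus-only sites lay inside the span of the other regions' sites in their gene. Between the outermost cortical and cerebellar sites of the gene lay 1662 (76.4%, 74.5 to 78.1%), 255 lay 5′ of them and 259 3′ of them. This span runs along the genome with introns, so a site inside it need not be close to a listed site. The 5′ run of Kcnd2, up to 638 nt from the nearest site of the other lists, counts as inside. The inner share was 68.4% for cortex-only and 70.1% for cerebellum-only sites. The distance to the annotated 3′ end of the gene had a median of 1433 nt for hippocampus-only sites, against 1588 nt for the other hippocampal sites of the genes that held them. Within 5000 nt of the gene end lay 87.9%, against 89.0%. Hippocampus-only sites thus lay in the same 3′ part of genes as the others, and exons and UTRs were not used here.

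Only 90 hippocampus-only sites (4.14%) lay more than 1000 nt from any site of the other lists, against 7.74% of cortex-only and 8.45% of cerebellum-only sites. These distances are along the genome and include introns. Adgrb3, an adhesion G-protein-coupled receptor gene, had the most distant, at 25826515 on chromosome 1 (3.45%), 732597 nt from a cerebellar site and toward the annotated start of the gene. Sv2b, a synaptic vesicle glycoprotein gene, followed with a site at 75206754 on chromosome 7 (1.2%, 89277 nt), and Ntrk2, the BDNF receptor gene, with 58859278 on chromosome 13 (1.01%, 72800 nt). Ogdh, an enzyme gene of the citric acid cycle, had a site 58713 nt away (2.13%), Atp2b1 53968 nt (1.39%) and Bcr 39027 nt (5.77%). The sites of Adgrb3, Sv2b, Ntrk2, Ogdh and Atp2b1 lay 5′ of all cortical and cerebellar sites of their gene, and that of Bcr lay 3′ of them, 521 nt from the annotated gene end.

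Gene groups were read against the 57.0% of all genes of all regions that had a hippocampus-only site, and against the 20.1% of their hippocampal sites that were hippocampus-only. The lists had been chosen with results of these data known, and no list was tested. Cell adhesion and axon guidance genes had such sites in 14 of 17 genes, at 64 of 221 hippocampal sites (29.0%, 23.1 to 35.4%). They were led by Pcdh9 with 12, Cadm3 with 10, the opioid-binding-protein-like adhesion gene Opcml with 7 and the L1-family gene Chl1 with 6. Small GTPases and their regulators had 51 of 199 (25.6%) in 19 of 29 genes, led by Arhgef4 with 8, the lysosomal GTPase gene Arl8b with 7, Srgap3 and Rac1 with 6 each. Cytoskeleton, neurofilament and motor genes were at the low end, with 49 of 494 (9.92%, 7.43 to 12.9%) in 25 of 38 genes, where the microtubule protein gene Map1b had 6 of 55 sites, Stmn2 5 of 14 and Ppp1r9a 4 of 31. Adhesion genes thus stood above and cytoskeletal genes below the 20.1% of all hippocampal sites. The share also differed with the number of hippocampal sites per gene, as given above, and the part of that number in the groups was not tested.

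**Figure D5:**
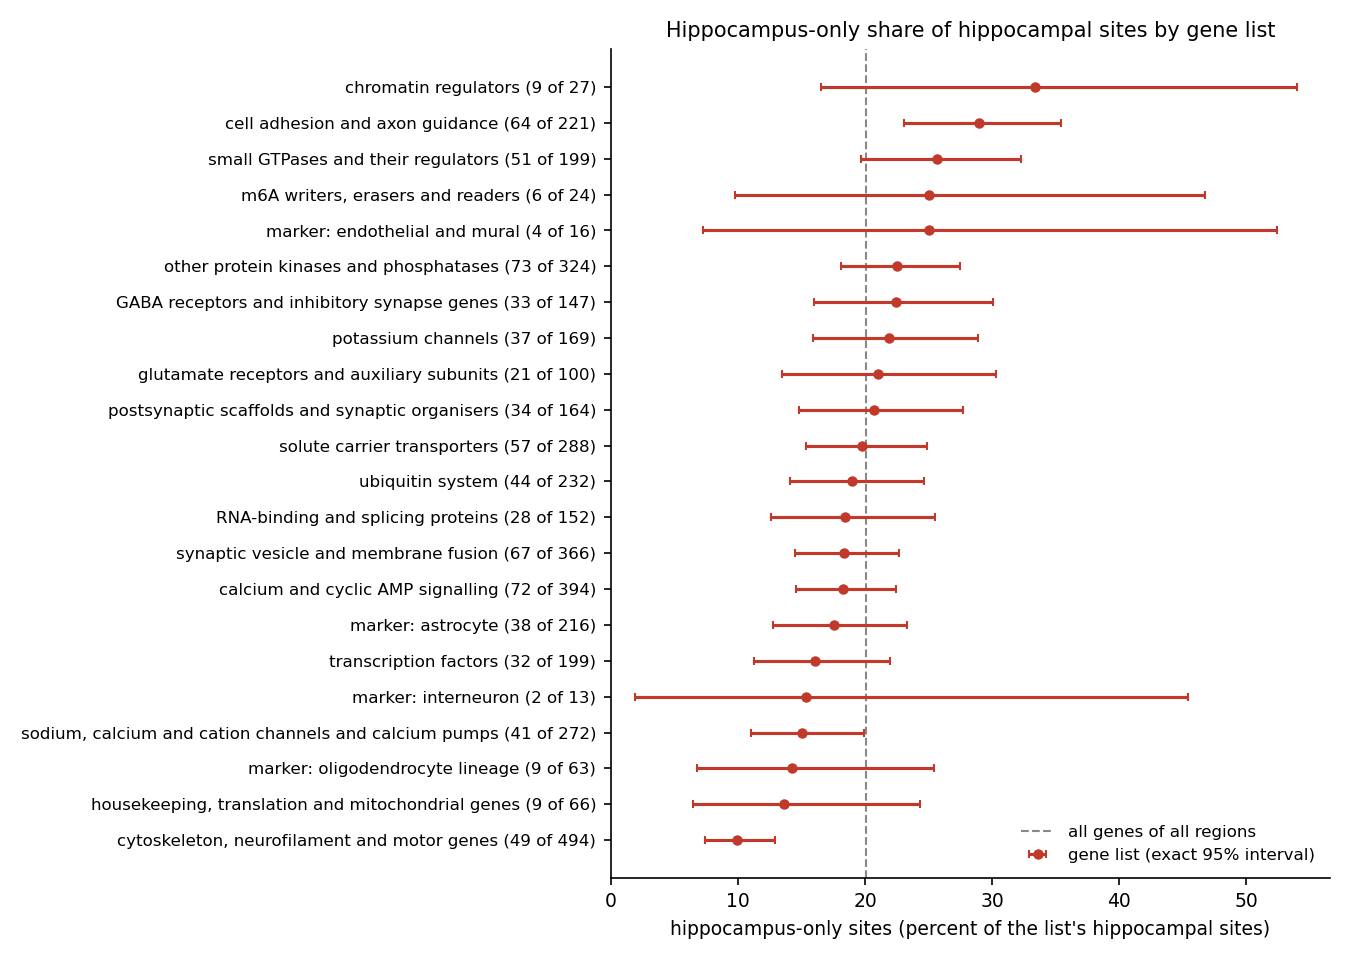
Share of hippocampal sites that were hippocampus-only (x axis, percent, with exact 95% binomial intervals) in each gene list or marker list with at least 4 genes of all regions, with counts in brackets; the dashed line marks 20.1%, the share over all genes of all regions. Cell adhesion genes (29.0%) lie above the line, and cytoskeleton genes (9.92%) and the sodium, calcium and cation channel list (15.1%) below it, with intervals that do not reach it.

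Receptors and channels had shares of hippocampus-only sites from 15.1% to 22.4%. The list of glutamate receptors and auxiliary subunits, which also holds neuronal pentraxin genes, had hippocampus-only sites in 7 of 8 genes at 21 of 100 sites. Among its receptor subunit genes, Gria1 had 4 of 31, Gria2 4 of 27, Gria3 1 of 22 and Grin1 3 of 5. The others with such sites were Nptxr with 6 of 8, Nptx1 with 2 of 5 and Neto2 with 1 of 1. GABA receptor and inhibitory synapse genes had 33 of 147 (22.4%) in 13 of 17 genes, with 3 in the GABA-A receptor subunit gene Gabra2. Potassium channel genes had 37 of 169 (21.9%), but in only 10 of 20 genes, and Kcnd2 (17) and Kcnd3 (5) held more of them than the others together. Sodium, calcium and cation channel and calcium pump genes had 41 of 272 (15.1%, 11.04 to 19.9%) in 10 of 16 genes, with Atp2b1 at 12, the sodium-calcium exchanger gene Slc24a2 at 10, the sodium channel gene Scn2a at 5 and Atp2b3 at 3. Among receptor and channel genes, only the last group had an interval below 20.1%.

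Synaptic and signalling genes had shares of hippocampus-only sites near that of all genes, while 66.7% to 77.8% of the genes of each group held such a site. Postsynaptic scaffold and organiser genes had 34 of 164 sites (20.7%) in 13 of 17 genes, with 7 in Shank1 and 4 of 5 in Shank3. Synaptic vesicle genes had 67 of 366 (18.3%) in 22 of 33 genes, led by Rab3c with 18, Sv2b with 8 and the phosphoinositide phosphatase gene Synj1 and the clathrin adaptor gene Snap91 with 4 each. Calcium and cyclic AMP signalling genes had 72 of 394 (18.3%) in 21 of 27 genes. There the calcineurin genes Ppp3cb and Ppp3ca had 10 and 9, the adenylyl cyclase gene Adcy1 had 8 and Camk1d had 6 with a highest level of 8.16%. Other kinase and phosphatase genes had 73 of 324 (22.5%) in 22 of 32 genes, with Ntrk2 and the spine protein gene Ppp1r9b at 8 each, the Cdk5 activator gene Cdk5r1 at 7 and Ppp1cb at 6. All 4 groups had intervals that include 20.1% of sites, and for calcium and cyclic AMP signalling genes the interval of the share of genes (57.7 to 91.4%) lay above 57.0%. These 27 genes held 394 hippocampal sites, and of all genes with 10 to 19 hippocampal sites 86.1% had a hippocampus-only one. The part of the number of sites per gene in the shares of genes was not tested.

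Nuclear, RNA, protein-turnover, transporter and housekeeping genes had shares of sites whose intervals include 20.1%, some of them wide. Transcription factor genes had 32 of 199 sites (16.1%) in 11 of 19 genes, with 8 of 11 in Mef2a and 8 of 53 in Zbtb18. Chromatin regulator genes had 9 of 27 (33.3%, 16.5 to 54.0%) in 5 of 11 genes, 4 of them in the corepressor gene Ncor1 at up to 7.14%. The list of RNA-binding and splicing genes had 28 of 152 (18.4%) in 10 of 15 genes. Stau2, a dendritic RNA transport gene, and Atxn7l3 had 5 each and Rbfox1 had 4 of its 6 sites. Atxn7l3, with 25 hippocampal sites, was counted there though it is not known to encode an RNA-binding or splicing protein. Of the m6A machinery, 3 of 4 genes had such sites, at 6 of 24 (25.0%): Prrc2a with 3, the m6A reader gene Ythdf2 with 2 and the demethylase gene Fto with 1, at levels up to 1.49%. Ubiquitin system genes had 44 of 232 (18.97%) in 17 of 29 genes, led by Rnf157 with 8 and Fbxl16 with 6. Solute carrier genes had 57 of 288 (19.8%) in 19 of 25 genes, led by Slc24a2 with 10 and by the astrocytic glutamate transporter genes Slc1a3 and Slc1a2 with 9 each. Housekeeping, translation and mitochondrial genes had 9 of 66 (13.6%) in 6 of 17 genes, and the single immediate early gene of all regions had 0 of 4.

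Hippocampal field markers hardly entered the set, because few of them were listed in every region. Of 41 such markers 17 had a site in any list and 2 were genes of all regions. Together these 2 genes had 3 hippocampus-only sites among 27 hippocampal ones (11.1%, 2.35 to 29.2%). All 3 lay in Wfs1, an endoplasmic reticulum gene of CA1 neurons with 10 hippocampal sites, at up to 4.24%. Astrocyte markers had 38 of 216 sites (17.6%) in 12 of 18 genes, led by Slc1a3, Slc1a2 and the receptor phosphatase gene Ptprz1, which had 6 at a mean of 4.07%. Oligodendrocyte lineage markers had 9 of 63 (14.3%) in 3 of 7 genes, 6 of them in Ptprz1, which both lists hold. Endothelial and mural markers had 4 of 16, all in Rgs5, and interneuron markers 2 of 13, in Gad1 and Gad2, which make GABA. Cerebellar neuron markers had 0 of 4 sites in 2 genes of all regions and choroid plexus markers 0 of 1, and no microglial marker was a gene of all regions. Hippocampus-only sites thus occurred in markers of astrocytes, and the counts for the other cell types were too small to compare them.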

How the data were processed

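STAR 2.7.5 and the build mm10 were used, per the submitters' processing notes. Per the series design in the labels, APOBEC1-YTHmut libraries served as background for C-to-U edits. How sites were called and filtered, and how libraries were pooled, is not given in the sources used here. The authors deposited 1 list per region, without a header, with chromosome, start, end, gene symbol, value and strand. The deposited value is a fraction from 0 to 1, printed as percent and called the editing level. Depth is unknown.

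Positions are 1-based. A hippocampus-only site was a hippocampal row whose gene symbol was in all lists and whose chromosome, position and strand were in neither other list. Distance was measured along the genome on the same strand and within the same symbol. Genes were matched to the RefSeq table of GRCm38.p6, 1591 by symbol and 5 by synonym, with 12 of 1608 unmatched. Site bases came from RefSeq windows of 250 bases before to 50 after gene starts; no genome or exon annotation was used.

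The rule for named genes took the 12 genes with most hippocampus-only sites, the 8 highest sites, the 8 largest shares among genes with 8 or more hippocampal sites, the 6 longest runs, the 6 most distant sites and up to 4 genes of each list, with predicted and clone-named genes replaced by the next. Some genes that it names are not reported here. The 20 gene lists and 7 marker lists were described by counts. The members and lists were chosen with earlier results of these data known. Functions were checked on simulated lists. Intervals used scipy 1.17.1, tables pandas 2.3.3 and numpy 2.4.6, and figures matplotlib 3.10.9, under Python 3.11.15.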

Additional observations from a re-analysis of the deposited data

How the results depend on the processing

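Of 55 values recomputed under 7 alternatives, 23 stayed within the 95% interval of the reported value (within 1.5 times for the number of sites) and 32 moved. Counting a site within 10 nt of a site of another list as listed there left 1853 hippocampus-only sites, 17.1% of sites in 52.2% of genes, a median distance of 70 nt, 40.04% within 50 nt and 73.8% between the outermost sites of the other lists. A tolerance of 50 nt left 1111 sites, 10.3% of sites, 38.4% of genes, a median distance of 149 nt and 66.1% between them; the share within 50 nt has no value there by construction. With levels under 2% removed from every list there were 1442 sites in 52.4% of genes, at a median of 2.74% and with 73.9% between them. Of the 2176 hippocampus-only sites only 901 were at 2% or more. The 1442 therefore include sites that cortex or cerebellum listed under 2%, so membership depends on the lower limit of the lists. With hippocampal levels under 5% removed there were 116 sites, 4.66% of sites in 6.22% of genes, with a median of 6.12%, 6.90% at 10% or more, a median distance of 62 nt, 44.8% within 50 nt and 64.7% between them. With at least 3 sites required in each list there were 1428 sites, 17.2% of sites in 71.6% of genes, with a median of 1.75%, a median distance of 43 nt, 55.0% within 50 nt and 85.0% between them. Merging sites within 10 nt in each list, with the highest kept, gave 2221 sites, 23.5% of sites, a median of 1.92% and 51.1% within 50 nt. Each list was merged separately, so a shared nucleotide can be dropped from another list and then count as hippocampus-only. The part of this in the higher share was not tested. Removing sites of 35% or more in any list moved no value.

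No paired analysis was possible because each region has 1 pooled list without values per library, and for the same reason leaving out a replicate was not possible. The lists carry no depth and end at 1%.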

Other observations

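The share of hippocampal sites that were hippocampus-only ranged over chromosomes from 15.1% (11.4 to 19.4%) to 25.4% (22.1 to 29.0%), highest on chromosome 7, and was 20.5% on the X chromosome.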
